A study of Homo sapiens with 9 samples.

Results

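The 10 genes described here, VEGFA, VEGFB, PGF, ADM, ANGPT2, ANGPTL4, EFNA1, EFNA3, STC1 and STC2, encode ligands and other secreted or cell-surface factors that are known for acting on blood vessels. They were chosen by symbol, not by their values, and all 10 were found among the 60591 symbols of the count table. Their messenger RNA was measured in undifferentiated Caco-2 cells (uCaco-2), proliferating cells of a human colon adenocarcinoma line used as a model of the intestinal epithelium. One group received 300 µM CoCl2, another 5 µM of the oxyquinoline derivative 4896-3212 (OD, named Oxy in the sample labels), and the control group fresh medium. All 3 groups were lysed after 24 h and comprised 3 biological replicates each. The labels state 0.5% DMSO for all of them, but OD at this dose from the stated stock would by itself carry less solvent, so whether the vehicle was equal is uncertain for every comparison with OD. Both compounds were used by the study as chemical activators of hypoxia-inducible factor (HIF). Only transcripts were measured, in 1 cell line without endothelial or stromal partners, so no value below describes secreted protein or an effect on vessels.

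HIF is a transcription factor whose alpha subunit is hydroxylated by prolyl hydroxylases and degraded while oxygen is present. When the hydroxylases are blocked, by lack of oxygen, by cobalt ions or by inhibitors that bind their iron, HIF binds DNA at a short core motif and raises the transcription of its targets. VEGFA and ADM are textbook targets, and through them a poorly oxygenated epithelium is known to signal to the vessels of the tissue.

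Library totals were 15998136 to 18298190 counts in control cells, 16286502 to 24209427 with CoCl2 and 16387054 to 19623776 with OD, and no replicate pair agreed within sampling noise. Levels are given as CPM, counts put on a common depth with the TMM factors of edgeR, which correct for differences in RNA composition and were 0.770 to 0.795 with CoCl2 against 1.11 to 1.15 in the other libraries. A gene is called here when its log2 fold change exceeds 1 in size and its adjusted p is under 0.05 in edgeR's quasi-likelihood test. Of 8 intestinal epithelial markers, CDX1 had no count in any library and the other 7 passed the expression filter. Their summed level was 9995 to 10459 CPM in control cells, 11745 to 12607 CPM with CoCl2 and 9456 to 9978 CPM with OD, most of it from the keratin KRT8. The villus actin-bundling gene VIL1, a marker of the brush border, was lower with CoCl2 by 2.45 on the log2 scale, and KRT20 by 1.44. These 2 of 7 tested markers were called lower, where 23.4% of all tested genes were called lower with CoCl2. The other 5 tested markers were not called. Their values were 0.18 to 0.36 under TMM and -0.33 to -0.14 with library size alone. The 8 endothelial markers summed to 11.7 to 12.6 CPM in control cells, 17.3 to 21.7 CPM with CoCl2 and 16.3 to 19.7 CPM with OD, most of it from ESAM. ERG had no count, and the angiopoietin receptor TEK and the VEGF receptor KDR had at most 1 and 2 counts in a library. The 7 fibroblast markers summed to 18.4 to 33.4 CPM over all libraries. In these bulk samples, fewer cells that express a gene and less RNA of it per cell cannot be told apart.

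Promoters of 5 genes whose levels differed between the compounds are shown, with the HIF core marked because both compounds were used as HIF activators. The RefSeq promoter table (GRCh38.p14) held 7 of the 10 genes, namely VEGFB, PGF, ADM, ANGPTL4, EFNA1, EFNA3 and STC2, and did not match VEGFA, ANGPT2 and STC1. Each window below is the 250 bases upstream of the annotated start, written on the strand of the gene, with HIF cores in capitals (ACGTG or GCGTG, or CACGT or CACGC where the core lies on the other strand). VEGFB and ANGPTL4, which were called higher with OD than with CoCl2, come first, followed by EFNA3 and STC2, whose difference in that direction lay just under the threshold. ADM, which was higher with CoCl2, is last. They lie at chr11:64234334-64234583 (plus strand), chr19:8363905-8364154 (plus strand), chr1:155078587-155078836 (plus strand), chr5:173328415-173328664 (minus strand) and chr11:10304823-10305072 (plus strand).
VEGFB: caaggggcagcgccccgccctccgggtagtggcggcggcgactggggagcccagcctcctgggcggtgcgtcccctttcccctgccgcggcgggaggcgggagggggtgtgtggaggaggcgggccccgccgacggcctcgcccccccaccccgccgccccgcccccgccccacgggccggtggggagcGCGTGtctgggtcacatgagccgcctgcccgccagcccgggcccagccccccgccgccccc
ANGPTL4: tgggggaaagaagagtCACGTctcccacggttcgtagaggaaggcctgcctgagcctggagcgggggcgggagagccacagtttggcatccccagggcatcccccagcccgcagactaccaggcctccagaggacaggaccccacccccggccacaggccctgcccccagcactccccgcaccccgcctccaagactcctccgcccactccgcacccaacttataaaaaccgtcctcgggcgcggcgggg
EFNA3: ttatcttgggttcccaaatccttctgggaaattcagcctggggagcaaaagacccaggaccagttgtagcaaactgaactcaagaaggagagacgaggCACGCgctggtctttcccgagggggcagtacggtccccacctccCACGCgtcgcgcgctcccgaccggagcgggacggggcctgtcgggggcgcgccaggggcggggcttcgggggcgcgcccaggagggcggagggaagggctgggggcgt
STC2: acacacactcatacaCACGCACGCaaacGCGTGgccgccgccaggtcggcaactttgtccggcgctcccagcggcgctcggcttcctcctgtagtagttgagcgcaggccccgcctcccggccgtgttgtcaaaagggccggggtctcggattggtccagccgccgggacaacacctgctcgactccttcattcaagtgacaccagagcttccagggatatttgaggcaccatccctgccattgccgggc
ADM: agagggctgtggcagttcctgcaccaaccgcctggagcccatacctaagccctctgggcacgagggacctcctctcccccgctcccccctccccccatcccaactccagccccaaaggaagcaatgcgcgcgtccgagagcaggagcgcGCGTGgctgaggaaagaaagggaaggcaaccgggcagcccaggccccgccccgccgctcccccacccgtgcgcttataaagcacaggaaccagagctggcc
The ANGPTL4 core was ACGTG on the other strand, 234 bases before the start, and it was the only ACGTG in the 8 windows. VEGFB had GCGTG at 61 bases before its start. EFNA3 had GCGTG at 152 and 108 bases before its start, both on the other strand. STC2 had GCGTG at 235 and 231 bases on the other strand and at 222 bases on its own strand, and ADM had it at 101 bases. At least 1 core was present upstream of all 7 matched genes. It was found in 7 of 8 windows, because PGF has a second annotated start without one. Of all 35116 promoter windows of this length, 43.2% held one. The 8 windows were 63.6% to 82.8% G or C, and the base content of all windows was not compared. A metal response core (TGCGCNC or TGCACNC) was present in 3 of the 8 windows, those of ADM, EFNA1 and STC2, and in 24.8% of all windows. The antioxidant core TGACNNNGC was present in 1 window, a PGF start, against 10.9% of all. The ATF4 element TGATGNAA (3.14% of all windows) and the heat-shock pair GAANNTTC (5.78%) were found in none of the 8. All motifs were searched on both strands, and a match describes letters in the window, not binding.

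Against control cells, CoCl2 raised 7 of the 10 genes past the threshold (VEGFA, ADM, ANGPT2, ANGPTL4, EFNA1, EFNA3 and STC1) and lowered VEGFB. Of all 15944 tested genes, 19.9% were called higher and 23.4% lower in this comparison. OD raised 5 of the 10 (VEGFA, ANGPTL4, EFNA1, EFNA3 and STC2) and lowered none past the threshold, where 9.09% of all tested genes were called higher and 4.16% lower. In the direct comparison 3 of the 10 were higher with CoCl2 (ADM, ANGPT2 and STC1) and 2 were higher with OD (VEGFB and ANGPTL4), where 17.5% of all genes were called higher with CoCl2 and 23.8% lower. The median log2 fold change of the 10 genes was 1.32 with CoCl2 and 1.17 with OD, and over all tested genes it was -0.049 and -0.010. ANGPT2 and STC1 passed the filter on low counts only through the CoCl2 libraries and ANGPTL4 only through the OD libraries, so their place in these counts was set in part by that filter.

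The CoCl2 counts depended on the scaling. With library size alone the median over all tested genes with CoCl2 moved from -0.049 to -0.55 (log2), and ADM, ANGPT2 and ANGPTL4 were then the 3 genes called higher, with VEGFB still called lower. VEGFA (0.72), EFNA1 (0.93), EFNA3 (0.73) and STC1 (0.91) stayed above control cells with this scaling but under the threshold. Over all genes, 46.0% of the calls with CoCl2 were upward under TMM and 23.9% with library size alone. Between CoCl2 and OD these shares were 42.4% and 18.3%, and the calls among the 10 genes went from 3 higher and 2 lower to 2 higher and 4 lower.

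**Figure D1:**
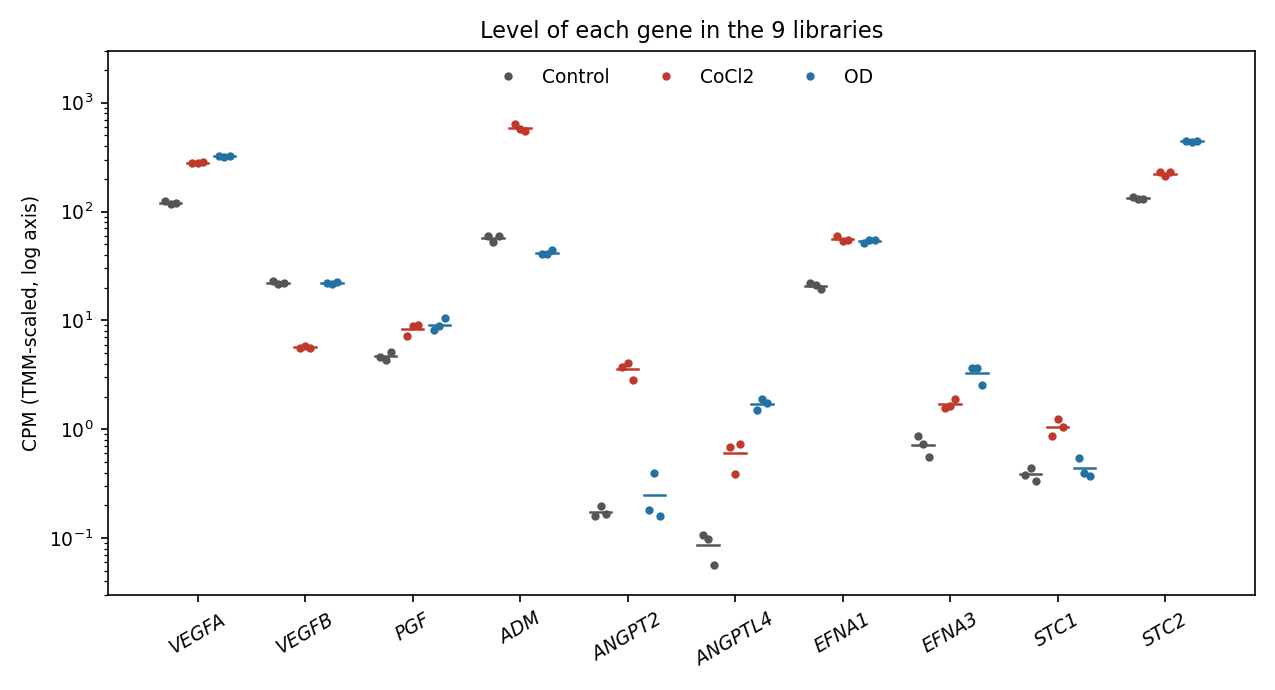
Level of each of the 10 genes in the 9 libraries as TMM-scaled CPM on a log axis, with points for single libraries and short lines for group means. ADM rises from 57.5 to 584 CPM with CoCl2 and lies at 41.9 CPM with OD, VEGFB is lowest with CoCl2, and STC2 and ANGPTL4 are highest with OD.

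Of the 3 VEGF family ligands, VEGFA rose past the threshold with both compounds, VEGFB fell with CoCl2 and PGF stayed under the threshold. VEGFA, the main growth factor for endothelial cells, lies on chromosome 6 (43770184 to 43786487, plus strand, GRCh38) and had 2324, 2401 and 2134 counts in the control libraries, 4509, 3587 and 5480 with CoCl2 and 7137, 7087 and 6072 with OD. Its mean level was 121 ± 3.79 CPM in control cells, 282 ± 5.02 CPM with CoCl2 and 321 ± 5.30 CPM with OD (SD, n = 3 each). All treated libraries were above all control libraries, and on the CPM scale every OD library was also above every CoCl2 library. The rise was 2.33-fold with CoCl2 (log2 1.22, SE 0.042, adjusted p = 2.61e-36) and 2.65-fold with OD (log2 1.41, SE 0.041, adjusted p = 7.57e-39) in the quasi-likelihood test of edgeR. CoCl2 minus OD gave a log2 value of -0.19 (SE 0.040, adjusted p = 2.54e-05) and of -0.73 with library size alone, both under the fold threshold.

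VEGFB, a ligand of the receptor FLT1 that is known for metabolic and survival roles more than for vessel sprouting, behaved differently. It lies on chromosome 11 (64234584 to 64239264, plus strand) and had 432, 438 and 393 counts in control cells, 90, 75 and 107 with CoCl2 and 483, 487 and 427 with OD. The 3 CoCl2 libraries were far below all others, while the control and OD libraries overlapped. With CoCl2 the level fell from 22.3 ± 0.903 to 5.67 ± 0.115 CPM (SD, n = 3), a 3.93-fold decrease (log2 -1.97, SE 0.095, adjusted p = 2.14e-28). With OD it was 22.1 ± 0.578 CPM, a log2 difference from control of -0.011 with a 95% interval of -0.15 to 0.13 (adjusted p = 0.903). CoCl2 and OD themselves differed by -1.96 on the log2 scale (adjusted p = 1.78e-28).

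PGF, the placenta growth factor and the remaining FLT1 ligand of the group, was expressed at a lower level. It had 85, 89 and 91 counts in control cells, 115, 114 and 172 with CoCl2 and 181, 199 and 196 with OD. On the CPM scale the treated libraries lay above the control libraries and overlapped each other. The log2 fold change was 0.84 (SE 0.128, adjusted p = 2.63e-08) with CoCl2 and 0.96 (SE 0.120, adjusted p = 1.72e-10) with OD, both under the threshold of 1. The value with CoCl2 was 0.33 with library size alone. CoCl2 and OD differed by -0.13, with a 95% interval of -0.35 to 0.093 (adjusted p = 0.275). With library size alone, or without control replicate 3 or OD replicate 1, PGF crossed the threshold with OD (1.01, 1.03 and 1.04).

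The balance of these ligands within a library does not depend on how libraries are scaled. There were 5.37 to 5.48 VEGFA counts for each VEGFB count in control cells, 47.5 to 51.0 with CoCl2 and 14.2 to 14.8 with OD, and the 3 groups did not overlap. On the log2 scale this ratio was higher than in control cells by 3.19 with CoCl2 and by 1.42 with OD, and higher with CoCl2 than with OD by 1.77. VEGFA outnumbered PGF by 23.3 to 27.2 in control cells, 31.3 to 39.0 with CoCl2 and 30.9 to 39.3 with OD, with overlap between the treatments only. With 3 libraries against 3, the exact two-sided permutation test cannot give a p below 0.1, and it gave 0.1 (0.12 adjusted over 12 ratio tests) wherever the groups did not overlap. For VEGFA to PGF between CoCl2 and OD the exact permutation test gave p = 0.9.

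**Figure D2:**
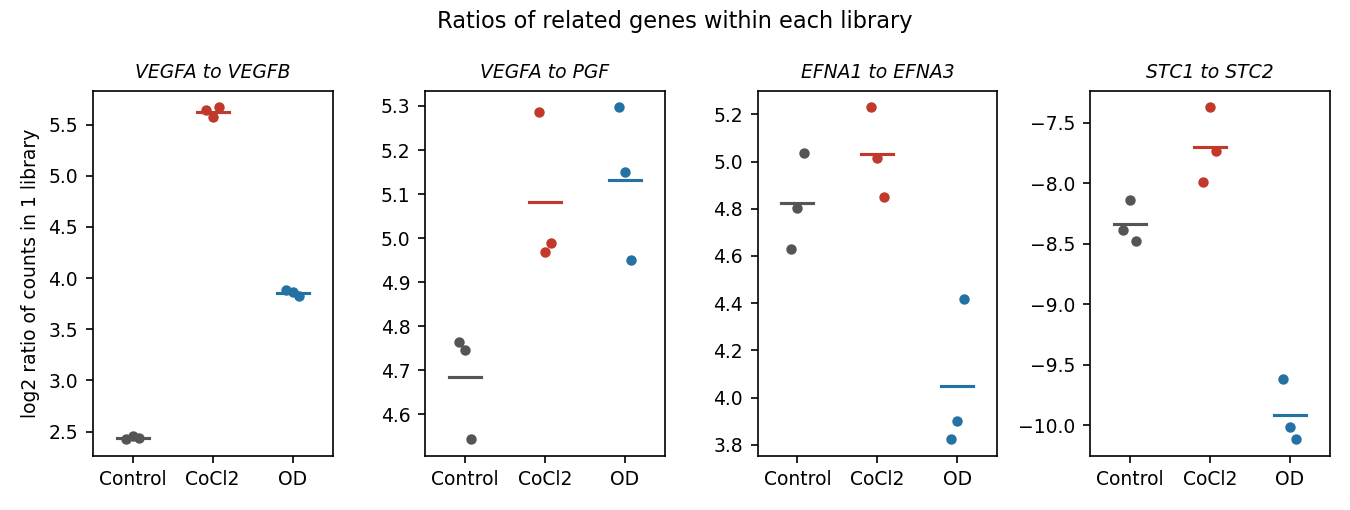
Log2 ratio of the counts of related genes within each library, by group, with points for libraries and lines for group means; each panel has its own vertical scale. The ratio of VEGFA to VEGFB separates all 3 groups, that of EFNA1 to EFNA3 is lowest with OD, and that of STC1 to STC2 is lowest with OD and highest with CoCl2.

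The other ligands and receptors of the VEGF family were mostly at or near 0. Of 7 further family genes, 4 were tested, and 2 of these, VEGFD and FLT1, were called higher with CoCl2 and 1, FLT1, with OD, none lower. Of all tested genes, 19.9% were called higher with CoCl2 and 9.09% with OD. No control library of VEGFD or FLT1 reached the filter on low values. VEGFD passed it only through CoCl2 libraries and FLT1 through the treated libraries, so these calls were set in part by the filter. VEGFD, a ligand of lymphatic receptors, had 3 counts over the control libraries, 91 with CoCl2 and 12 with OD, a ratio of 35.9 for CoCl2 with a counting interval of 11.9 to 177. FLT1, which encodes the receptor shared by VEGFA, VEGFB and PGF, had 57 counts with CoCl2, 90 with OD and 7 in control cells, ratios of 9.62 (4.38 to 25.0) and 11.5 (5.37 to 29.5). These intervals are at the 95% level and cover counting error of pooled counts only. NRP1 and NRP2, co-receptors of VEGFA, were not called under TMM, with log2 fold changes of -0.69 and -0.37 with CoCl2 and -0.38 and 0.09 with OD; with library size alone NRP1 was called lower with CoCl2 (-1.20).

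ADM encodes adrenomedullin, a secreted peptide that relaxes vessels and protects the endothelial barrier. It lies on chromosome 11 (10305073 to 10307397, plus strand) and had 1113, 1080 and 1065 counts in control cells, 10182, 7374 and 10428 with CoCl2 and 905, 910 and 832 with OD. Every CoCl2 library was above every other library, and on the CPM scale every OD library was below every control library. The mean level was 57.5 ± 3.96 CPM in control cells, 584 ± 44.7 CPM with CoCl2 and 41.9 ± 2.08 CPM with OD (SD, n = 3). With CoCl2 this was a 10.2-fold increase (log2 3.34, SE 0.052, adjusted p = 1.26e-46). With OD the log2 fold change was -0.46 (SE 0.058, adjusted p = 1.38e-09), under the fold threshold. The direct difference of CoCl2 from OD was 3.80 (SE 0.053, adjusted p = 2.12e-48), and all of the alternative fits kept its call, with values from 3.25 to 3.85.

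ADM made up 15.1% to 16.7% of the summed counts of the 10 genes in control libraries, 48.0% to 51.8% with CoCl2 and 4.57% to 4.90% with OD. STC2 took the largest share with OD, 49.0% to 49.6%, against 36.5% to 37.5% in control cells and 18.6% to 20.1% with CoCl2. The summed level of the 10 genes was 360 ± 10.9 CPM in control cells, 1166 ± 49.1 CPM with CoCl2 and 896 ± 10.2 CPM with OD (SD, n = 3).

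The receptor genes of the adrenomedullin system differed in level in these cells. CALCRL, its receptor, had at most 1 count in any library, and RAMP3, a partner of CALCRL, had no count. RAMP2, the partner that makes CALCRL an adrenomedullin receptor, was lower with CoCl2 by 2.02 on the log2 scale (15.4 to 3.77 CPM) and its value was -0.82 with OD. ACKR3, an atypical receptor known to take up adrenomedullin, fell by 1.32 with CoCl2 and rose by 1.36 with OD, from 32 to 38 counts per control library to 10 to 13 and 92 to 105. ADM2, a related peptide also called intermedin, rose under both compounds, by 1.02 with CoCl2 and 1.76 with OD, although with library size alone its value with CoCl2 was 0.51 and not called. Of the 8 genes of this system besides ADM, 4 were tested. With CoCl2 1 was called higher and 2 lower, where 19.9% and 23.4% of all tested genes were. With OD 2 were called higher and 0 lower, where 9.09% and 4.16% of all tested genes were.

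**Figure D3:**
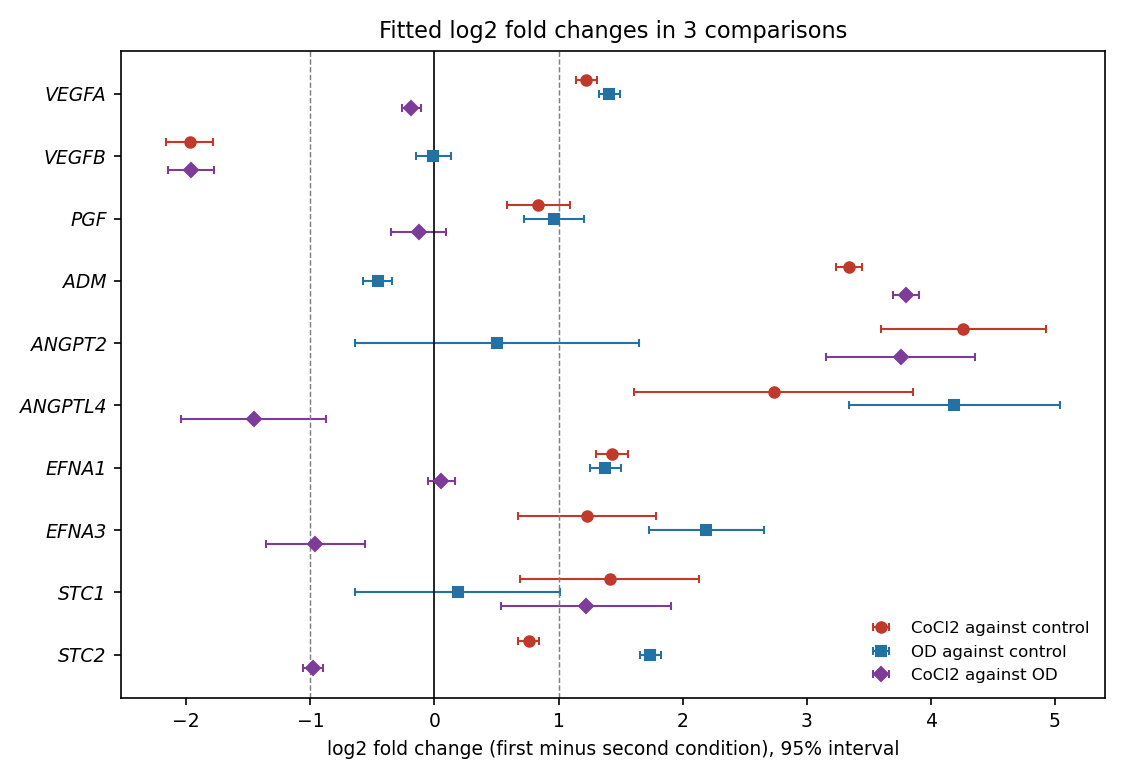
Log2 fold changes of the 10 genes from edgeR, for CoCl2 against control, OD against control and CoCl2 against OD. Bars are 95% intervals derived from the F statistic of the test, and dashed lines mark the threshold of 1 in size. ADM and ANGPT2 respond to CoCl2 and not past the threshold to OD, EFNA1 and VEGFA respond to both at similar size, and STC2, EFNA3 and ANGPTL4 lie further right with OD.

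ANGPT2 encodes angiopoietin 2, which loosens vessels by competing at the receptor TEK, and is normally a product of endothelial cells. It lies on chromosome 8 (6499632 to 6563409, minus strand), and 9.69% of its exonic bases overlap MCPH1 on the opposite strand. It had 3, 4 and 3 counts in control cells, 60, 53 and 54 with CoCl2 and 4, 9 and 3 with OD. The CoCl2 libraries stood apart from all others, and the control and OD libraries overlapped. The ratio of pooled, scaled counts was 19.7 with CoCl2 (95% counting interval 10.5 to 41.9) and 1.44 with OD (0.612 to 3.54). The fitted log2 fold changes, which depend on the prior count at this depth, were 4.26 (SE 0.332, adjusted p = 1.94e-18) and 0.50 (SE 0.572, adjusted p = 0.449). The 3 tested endothelial markers did not move together with CoCl2. VWF was called higher (1.61, from 21 to 55 counts over 3 libraries, with no control library at the filter), ESAM had a value of 0.94, and PECAM1 had -0.80, or -1.30 and called lower with library size alone. TEK and ERG stayed at or near 0 as given above, and the part of other cells in the ANGPT2 result was not tested.

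ANGPTL4, an angiopoietin-like protein best known as an inhibitor of lipoprotein lipase, had the reverse order of response. It had 2, 2 and 1 counts in control cells, 11, 5 and 14 with CoCl2 and 33, 43 and 33 with OD, so that the 3 groups did not overlap. The pooled ratio was 7.09 with CoCl2 (95% counting interval 2.72 to 23.4) and 19.6 with OD (8.13 to 61.4). Directly, CoCl2 stood at 0.363 of the OD level (0.234 to 0.547), and the fitted difference was -1.46 (SE 0.291, adjusted p = 8.16e-06). Even with OD the level was only 1.72 ± 0.207 CPM (SD, n = 3).

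Among 11 further angiopoietins, angiopoietin-like genes and their receptors, only ANGPT1 and ANGPTL7 passed the filter. ANGPT1, which stabilizes vessels through TEK, was lower with CoCl2 by 1.33 on the log2 scale and had a value of -0.70 with OD. ANGPTL7 was near 0 in control and CoCl2 libraries, with 3 counts over each group, and had 73 counts with OD, a ratio of 21.8 to control (7.18 to 108). It passed the filter through the OD libraries only.

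EFNA1 and EFNA3 encode ephrin A ligands, which are anchored to the cell surface, can be shed from it, and bind EphA receptors on neighbouring cells. EFNA1 lies on chromosome 1 (155127876 to 155134899, plus strand) and had 408, 432 and 344 counts in control cells, 957, 695 and 1052 with CoCl2 and 1140, 1246 and 1036 with OD. All treated libraries were above all control libraries, and the treatments overlapped on the CPM scale. The increase was 2.70-fold with CoCl2 (log2 1.43, SE 0.064, adjusted p = 4.22e-30) and 2.59-fold with OD (log2 1.38, SE 0.063, adjusted p = 7.67e-29). The difference between them was 0.056 with a 95% interval of -0.056 to 0.17 (adjusted p = 0.348) under TMM, and -0.49 with library size alone, so its direction changed with the scaling.

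EFNA3 lies near EFNA1 on chromosome 1 (155078837 to 155087538, plus strand) and was far less abundant. It had 16, 15 and 10 counts in control cells, 25, 21 and 36 with CoCl2 and 80, 83 and 48 with OD. The groups did not overlap on the CPM scale. It rose by 1.23 with CoCl2 (SE 0.279, adjusted p = 6.21e-05) and by 2.19 with OD (SE 0.231, adjusted p = 7.69e-13) on the log2 scale. CoCl2 was below OD by a log2 difference of -0.96 (SE 0.199, adjusted p = 1.59e-05), just under the threshold, and past it under 5 alternative fits. These were the fits with at least 10 counts in every library (-1.01), without a count filter (-1.03) and with library size alone (-1.50), and those without CoCl2 replicate 3 (-1.06) or OD replicate 3 (-1.11). In the GENCODE annotation, 43.9% of the exonic bases of EFNA3 are shared with the readthrough gene EFNA4-EFNA3 on the same strand, so the split of reads between the genes is uncertain. EFNA1 counts were 24.8 to 32.8 times those of EFNA3 in control cells, 28.8 to 37.5 times with CoCl2 and 14.2 to 21.4 times with OD.

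Of 6 other ephrins, 5 were tested, with 0 called higher and 2 lower with CoCl2 and 1 higher and 0 lower with OD. EFNB3 fell by 2.41 on the log2 scale with CoCl2 and rose by 1.32 with OD, from 75 to 86 counts per control library to 5 to 17 and 202 to 242. EFNA2 fell by 1.21 with CoCl2 and its value was 0.10 with OD. Among 14 ephrin receptors, 10 were tested, of which 3 were called higher and 4 lower with CoCl2 and 2 higher and 0 lower with OD. For both lists, the shares over all tested genes were 19.9% higher and 23.4% lower with CoCl2. With OD they were 9.09% and 4.16%. EPHB2, a receptor of colon crypt base cells, fell by 3.14 with CoCl2 (39.5 to 4.45 CPM), and EPHA4 rose by 1.77 (59.6 to 203 CPM). With OD their values were -0.59 and 0.24, and the direct differences were -2.55 and 1.52. EPHB1, which passed the filter only through OD libraries, rose by 1.54 with OD. EPHA6 fell by 2.36 with CoCl2, from 50 counts over the control libraries to 8. No CoCl2 library of EPHA6 reached the filter, so both calls were set in part by it. With library size alone 6 receptors in place of 4 were called lower with CoCl2, and the 3 higher calls remained 3 in number.

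**Figure D4:**
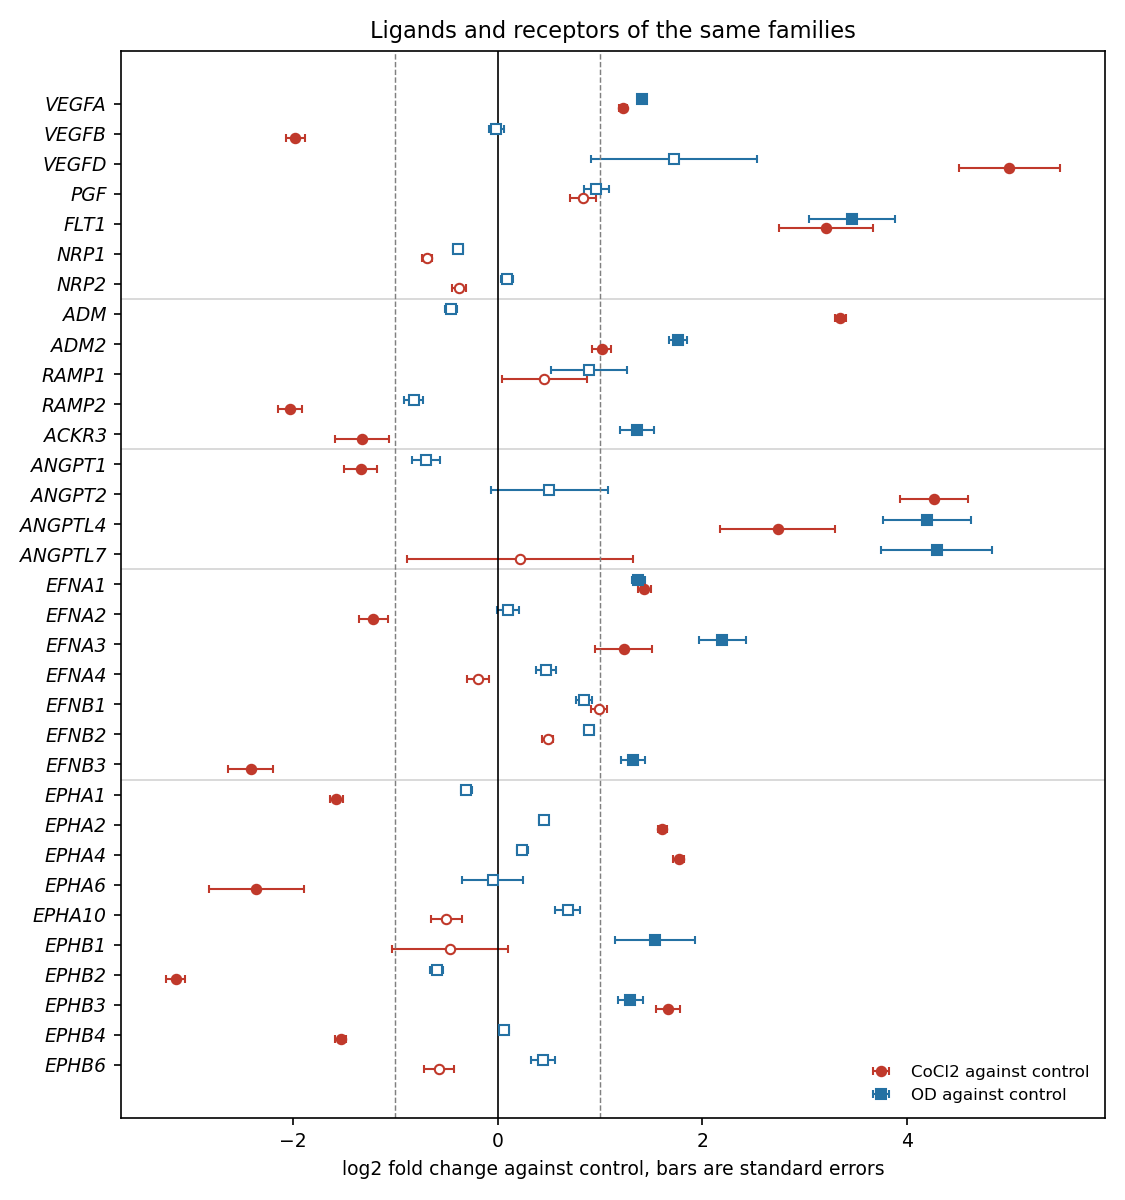
Log2 fold changes against control of the tested genes of 5 families (VEGF, adrenomedullin, angiopoietin and angiopoietin-like, ephrin, ephrin receptor) with standard errors as bars, CoCl2 in red circles and OD in blue squares, filled where called. Calls with CoCl2 lie on both sides of 0, whereas all calls with OD lie above 0.

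The stanniocalcins are secreted glycoproteins, named for a gland of bony fish, that inhibit the pappalysin proteases of the insulin-like growth factor system. STC2 lies on chromosome 5 (173314723 to 173328447, minus strand) and had 2518, 2677 and 2322 counts in control cells, 3693, 2733 and 4379 with CoCl2 and 9817, 9848 and 8322 with OD. The 3 groups did not overlap on the CPM scale, with OD highest. The mean level was 132 ± 2.77 CPM in control cells, 224 ± 10.5 CPM with CoCl2 and 442 ± 4.46 CPM with OD (SD, n = 3). The increase was 3.34-fold with OD (log2 1.74, SE 0.042, adjusted p = 1.24e-43). With CoCl2 it was 1.69-fold (log2 0.76, SE 0.043, adjusted p = 3.90e-25), under the threshold, and log2 0.25 with library size alone. CoCl2 was below OD by a log2 difference of -0.98 (SE 0.041, adjusted p = 6.79e-32), and past the threshold without a count filter (-1.05), with at least 10 counts in every library (-1.03) or with library size alone (-1.53).

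STC1, its low-abundance paralog on chromosome 8 (23841929 to 23854806, minus strand), had 7, 9 and 6 counts in control cells, 14, 16 and 20 with CoCl2 and 12, 9 and 7 with OD. On the CPM scale the CoCl2 libraries were above all others, and the control and OD libraries overlapped. Its log2 fold change was 1.41 with CoCl2 (SE 0.362, adjusted p = 3.43e-04) and 0.19 with OD (95% interval -0.64 to 1.01, adjusted p = 0.705). CoCl2 exceeded OD by 1.22 (SE 0.342, adjusted p = 9.59e-04). With library size alone neither the value against control (0.91) nor that against OD (0.68) was called. The log2 ratio of STC1 to STC2 within a library was higher than in control cells by 0.64 with CoCl2, lower with OD (-1.58), and differed by 2.22 between the treatments without overlap of libraries. The pappalysin genes PAPPA and PAPPA2 were too low to be tested.

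Levels per length allow the 10 genes to be ordered within a condition. In control cells STC2 (26.1 CPM per kilobase of merged exons) and ADM (24.7) came first and did not differ beyond the spread of their libraries. They were followed by VEGFB (11.3), EFNA1 (9.61) and VEGFA (8.37), then PGF (0.806), EFNA3 (0.370), STC1 (0.093), ANGPTL4 (0.035) and ANGPT2 (0.026), the last pair overlapping. With CoCl2, ADM led with 251 CPM per kilobase, ahead of STC2 (44.2), EFNA1 (25.9) and VEGFA (19.5), and VEGFB dropped to 2.88. With OD, STC2 led with 87.3 CPM per kilobase, ahead of EFNA1 (25.0), VEGFA (22.2), ADM (18.0) and VEGFB (11.2). STC1 and ANGPTL4 overlapped with CoCl2 (0.255 and 0.243), and so did EFNA3 and PGF with OD (1.69 and 1.58). The length of VEGFA, 14431 bases, counts every exon of every annotated transcript and so places its level low.

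The genes with the pattern most like each of the 10 were those with the smallest root-mean-square difference of centred log2 CPM over the 9 libraries. For VEGFA they included NATD1 (0.050), for VEGFB they were LTBP1 (0.057) and PRKACA (0.058), and for EFNA1 GATA2 (0.052) and WSB1 (0.071). For ADM they were DNAJB1 (0.110), an HSP40 co-chaperone, and FTL (0.160), the ferritin light chain. STC2 lay nearest to ALS2CL (0.094) and TXNIP (0.099), and PGF to KRBOX4 (0.076) and CPT1A (0.112). Likeness was looser for the low-count genes: ANGPTL4 with PFKFB4 (0.289) and RNF183 (0.350), EFNA3 with MT-RNR1 (0.219) and EEF1A2 (0.229), ANGPT2 with SAT1 (0.386) and DEDD2 (0.395), and STC1 with VCPKMT (0.164) and AC004982.2 (0.164). All 9 libraries enter each value, and the 3 group means carry most of it.

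For reference, 7 of 8 known HIF target genes outside the set were tested, and 7 were called higher with CoCl2 and 6 with OD. The 6 called with OD are among the genes that the study named as responding to both compounds in undifferentiated and differentiated cells. The counts of this list were thus largely set in advance. Of all tested genes, 19.9% were called higher with CoCl2 and 9.09% with OD. BNIP3, a mitophagy receptor, rose by 3.77 with CoCl2 and 3.98 with OD on the log2 scale, NDRG1 by 3.69 and 3.22, the histone demethylase gene KDM3A by 3.38 and 2.04, and PDK1, a brake on pyruvate oxidation, by 2.39 and 3.26. Among these 7 genes 1 was called higher with CoCl2 than with OD and 0 lower, a split that with library size alone was 0 and 3. Over all 15944 tested genes 17.5% were called higher and 23.8% lower in this comparison. With library size alone 1351 genes were called higher and 6026 lower. Of 8 ATF4 target genes, which report amino acid and endoplasmic reticulum stress, 5 were called higher with each compound. DDIT4, a stress gene that is also a known HIF target, rose by 4.16 with CoCl2 and 4.04 with OD, SESN2 by 2.75 and 1.46, and ATF3 by 2.46 and 1.90. ASNS, the asparagine synthetase, rose by 2.10 with OD and had a value of 0.77 with CoCl2, where TRIB3 and CHAC1 were not called either. With library size alone 6 HIF target genes and 3 ATF4 target genes were called higher with CoCl2.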

How the data were processed

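Messenger RNA of uCaco-2 cells was sequenced as stranded, single-end libraries, 3 per condition. The deposited values are raw counts per gene symbol without normalization. Per the submitters' processing notes the authors used FastQC 0.11.9, cutadapt 2.10 and STAR 2.7.5b on GRCh38.p13. The counting tool, its strand setting and its treatment of reads that fit several genes are not given in the sources used here, so overlapping genes are uncertain. The authors tested with DESeq2 at the thresholds used here. 0 sample columns were left unused.

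From the counts, edgeR 4.0.16 in R 4.3.3 kept 15944 of 60591 symbols (filterByExpr, about 0.547 CPM in 3 libraries or more), computed TMM factors and fitted 1 mean per group over all 9 libraries. A robust quasi-likelihood test gave the p-values, with Benjamini-Hochberg adjustment over all tested genes. Calls needed a log2 fold change larger than 1 in size and an adjusted p under 0.05. Within-library ratios used counts plus 0.5. Genes near 10 counts, such as STC1, had log2 standard errors of 0.342 to 0.413, and VEGFA of 0.040 to 0.042. Intervals on pooled counts cover counting error only, because no molecular identifiers marked PCR copies.

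Coordinates, exon lengths and overlaps came from GENCODE on GRCh38, matched by symbol, and promoters from RefSeq. Named genes are the 10 genes, up to 4 called genes of each list by size of change, and the 2 nearest genes to each with at least 5 CPM, of which 1 is not reported here; NRP1, NRP2, CALCRL, RAMP3, KDR, TEK, ERG, ESAM, PECAM1, TRIB3, CHAC1 and KRT8 were named after their values were seen. The genes and the 14 lists were chosen with earlier results of these data known. The steps were tested on simulated data. Alternatives were DESeq2 1.42.0, 6 libraries per comparison, RLE factors, library size alone, other count filters, a replicate block, each replicate left out and another pseudocount.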

Additional observations from a re-analysis of the deposited data

Results flagged for a closer look

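ADM was the only one of the 10 genes whose effects against control were opposite in sign with both adjusted p-values under 0.05. CoCl2 raised it by 3.34 on the log2 scale, OD gave -0.46, and the difference itself, tested within the same edgeR quasi-likelihood fit, was 3.80 (adjusted p = 2.12e-48). The level was higher in 3 of 3 CoCl2 libraries and lower in 3 of 3 OD libraries than in every control library. The fall with OD kept its sign in all 16 alternative fits, with values from -0.52 to -0.41, and in none of them reached the fold threshold.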

How the results depend on the processing

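Each log2 fold change was refitted under up to 16 alternatives, and 444 of the 468 values kept direction and call. Under scaling by library size alone 3 genes in place of 7 were called higher with CoCl2 than in control cells, and 4 in place of 2 were lower with CoCl2 than with OD. The median of all genes also moved with this scaling, and which scaling is nearer the truth was not tested. Requiring at least 10 counts in every library removes low genes by construction and left 4 called higher with CoCl2, 1 higher with CoCl2 than with OD, and 1134 called genes with OD in place of 2113. Without a count filter 4 genes were lower with CoCl2 than with OD, and the cause was not tested. Values near 0 changed sign. VEGFB with OD was 0.0061 on 6 libraries, 0.030 with library size alone, 0.014 with at least 10 counts, and -0.040 to 0.036 with a replicate left out. ANGPT2 with OD was -0.033 to 0.71 with a replicate left out, the lowest without OD replicate 2. EFNA1 between CoCl2 and OD was -0.49 with library size alone and -0.0096 without a filter. The log2 ratio of VEGFA to PGF between CoCl2 and OD was -0.15 to 0.032 with a library left out. With a replicate left out, 5 to 6 genes were called higher with OD and 2 to 3 lower with CoCl2 than with OD. Whether the replicate numbers pair the libraries could not be settled. Correlations of deviations between same-numbered libraries were -0.0034 to 0.035, and not every library correlated best with its own number. The highest value of each comparison was from a same-numbered pair, but values this near 0 neither show nor exclude a pairing. A fit with a replicate block called 7 genes higher and 1 lower with CoCl2, 5 higher with OD, and 6901 genes in place of 6891 with CoCl2. Depth limits ANGPT2, ANGPTL4, EFNA3 and STC1, at 1 to 16 counts per control library.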

Other observations

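Other secreted factors outside these families were also examined. Of 14 further angiogenic ligands 8 were tested, with 3 called higher and 1 lower with CoCl2 by edgeR's quasi-likelihood test. With OD 1 was called higher and 0 lower. Of all tested genes, 43.2% were called with CoCl2 (19.9% higher and 23.4% lower) and 13.3% with OD (9.09% and 4.16%). The number of ligands called in either direction lay near those shares. SPP1 and CXCL8 passed the filter on low values only through the CoCl2 libraries, so their calls were set in part by it. SPP1, the matrix cytokine osteopontin, had 5 counts over the control libraries, 69 with CoCl2 and 16 with OD, a CoCl2 ratio of 16.3 with a 95% counting interval of 6.66 to 51.8. CXCL8, the neutrophil chemokine interleukin 8, had 11, 84 and 18 counts, a CoCl2 ratio of 9.03 (4.80 to 18.8). PDGFA rose by 1.19 on the log2 scale with CoCl2, a call lost with library size alone (0.68), and its value with OD was 0.71. The EGF receptor ligand TGFA fell by 1.57 with CoCl2, from 43 counts over the control libraries to 12. No CoCl2 library of TGFA reached the filter, so its call was also set in part by it. Angiogenin, ANG, rose by 1.32 with OD.

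A list of 10 genes linked to the restraint of vessel growth also held VASH2, which is known to promote it. Of these 8 were tested, with 1 called higher and 2 lower with CoCl2 and 2 higher and 0 lower with OD. The shares over all tested genes are those given above for the ligands. Scaling by library size alone gave 0 higher and 4 lower with CoCl2, COL18A1 (-1.36) and VASH1 (-1.40) being added. Thrombospondin 1, THBS1, rose by 1.39 on the log2 scale with CoCl2 and had a value of -0.65 with OD, a direct difference of 2.04 (adjusted p = 2.12e-48), although with library size alone the rise was 0.89 and not called. The semaphorins SEMA3F and SEMA3A fell by 1.85 and 1.57 with CoCl2. The vasohibins VASH1 and VASH2 rose by 1.38 and 1.87 with OD, with 16 and 78 counts over the control libraries and 47 and 319 with OD, and VASH1 passed the filter through OD libraries only. PDGFA, SEMA3A and COL18A1 were named after their values were seen.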
